A study of Mus musculus with 8 samples.

Results

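The mitochondrial DNA of the mouse carries its own small set of genes, and all of them were examined here in muscle stem cells, the cells from which skeletal muscle is repaired. The members were the genes that the deposited count table places on chrM, 37 of the 57180 genes in the table. They comprised 13 protein genes, 2 rRNA genes and 22 tRNA genes. No expression value entered the choice. Bulk RNA sequencing had been done on muscle stem cells that were sorted by flow cytometry and used without culture, to ask what follows from lower RhoA activity. The control group held 4 libraries titled wild type (replicates 2, 5, 7 and 8). The other group held 4 libraries titled RhoA het (replicates 5, 6, 7 and 8), from mice named SC-RhoAfl/+ in the design text, that is with a floxed RhoA allele beside an intact one. Their genotype field reads RhoA knockdown. The Cre driver, the meaning of SC, and the age and sex of the mice are not given in the sources used here. Nothing in the labels says whether the libraries of a group came from separate animals, so every p-value measures only the spread between these samples.

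Mitochondrial DNA is a closed circle, kept in many copies per cell inside the organelle. Both strands are read as long precursors, out of which the tRNAs are cut, and this cutting frees the rRNAs and most mRNAs between them. The protein genes all encode subunits of the respiratory chain or of ATP synthase, whose other subunits come from nuclear genes, and the rRNAs and tRNAs serve the organelle's own ribosomes. Muscle stem cells at rest are known for few mitochondria, which multiply when the cells are activated.

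The genes lay end to end. On chrM of assembly mm39, 28 genes were annotated on the plus strand and 9 on the minus strand, and 21 of 36 neighbouring pairs touched or overlapped. Between mt-Tn and mt-Tc lay the widest gap between neighbours, at 32 bases. The positions, ends and strands of all 37 genes were the same in GENCODE release 21 (assembly GRCm38), whose transcripts supplied the sequences shown here. Some protein genes overlap in the same direction, and a fragment that falls in such an overlap belongs to both genes. In the first junction below, which covers chrM:7907-7989 on the plus strand, capitals mark the 43 bases shared by the end of mt-Atp8 and the start of mt-Atp6. In the next, chrM:10147-10193 on the plus strand, capitals mark the 7 bases shared by mt-Nd4l and mt-Nd4. Both are shown because the counting did not accept fragments that overlap several genes.
mt-Atp8/mt-Atp6 junction: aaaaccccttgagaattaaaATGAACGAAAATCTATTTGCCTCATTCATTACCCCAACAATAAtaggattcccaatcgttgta
mt-Nd4l/mt-Nd4 junction: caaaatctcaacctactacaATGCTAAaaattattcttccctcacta

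Of the 13 protein genes, 10 ended in a complete stop codon. The other 3, mt-Cytb, mt-Co3 and mt-Nd4, ended in a lone T, to which the polyadenylation of the mRNA is known to add the missing bases of a stop. Their last 30 bases are shown beside those of mt-Co1 and mt-Co2, which end in a full stop codon, with the stop or the lone T in capitals. All are on the plus strand, at chrM:15259-15288, chrM:9361-9390, chrM:11515-11544, chrM:6843-6872 and chrM:7667-7696.
mt-Cytb end: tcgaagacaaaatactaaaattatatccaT
mt-Co3 end: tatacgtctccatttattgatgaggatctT
mt-Nd4 end: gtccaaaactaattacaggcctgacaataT
mt-Co1 end: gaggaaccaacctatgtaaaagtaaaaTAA
mt-Co2 end: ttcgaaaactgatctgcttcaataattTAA

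Each library held between 19138763 and 25606342 assigned fragments. Rhoa, the targeted gene, stood at 273 to 383 CPM (fragments rescaled to equal library totals after TMM correction) in control and at 253 to 282 CPM in RhoA het, so the groups overlapped (log2 fold change -0.29, SE 0.13, edgeR quasi-likelihood test p 0.0495, adjusted p 1). All 10 muscle stem cell markers examined were detected in every library. Pax7, the transcription factor that defines these cells, ranged from 112.5 to 175.8 CPM in control and from 78.5 to 105.6 CPM in RhoA het, so its groups did not overlap. It was the 1 marker of the 10 without overlap, where 1.81% of all genes tested had none. Myf5, Vcam1 and Spry1, also on the list, had mean CPM in RhoA het of 1.17, 1.13 and 1.21 times control, with overlapping groups. Chodl and Cdh15 stood at 0.757 and 0.865 times control, also with overlapping groups. Of the 10 markers 6 had a log2 fold change below 0 and 4 above. RNA of other cell types was present as well: summed CPM ran from 2436 to 10834 for 10 fibro-adipogenic markers and from 55.2 to 573 for 15 myofibre markers. RhoA het replicate 6 stood apart with 692 CPM over 10 endothelial markers, against 74.3 to 169.9 CPM in the other 7 libraries. Control replicate 2 and RhoA het replicate 6 also held more fragments from the Y chromosome than from Xist (15179 and 15137 against 5 and 7), while the other 6 libraries held 218 to 677 and 3539 to 5188. For some results, values over the 6 libraries numbered 5, 7 and 8, which leave out these 2, are given beside those over all 8.

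The 37 genes together took a small and similar share of every library. Per library, always in the order control replicates 2, 5, 7 and 8 and then RhoA het replicates 5, 6, 7 and 8, the share of assigned fragments was 1.37%, 1.42%, 1.35% and 1.65% in control and 1.55%, 1.54%, 1.25% and 1.64% in RhoA het. Control replicate 8 was the highest library and RhoA het replicate 7 the lowest, and the groups overlapped. The 95% Wilson interval of each share was at most 0.00568 percentage points to either side, which covers counting error alone. Group means were 1.45% ± 0.138 and 1.49% ± 0.170 (SD, n = 4 each), and the share was higher in RhoA het in 1 of the 3 pairs of libraries with the same number. Over the 6 libraries numbered 5, 7 and 8 the means differed by 0.00506 percentage points. Read per length, as a share of all TPM (counts divided by gene length and scaled to 1 total per library), the genes took 3.42% to 4.40%. In bulk RNA, a change in how many cells of a type are present and a change in the RNA per cell cannot be told apart.

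A few genes held most of these fragments. The 5 most counted genes took 89.0% to 91.1% of the mitochondrial fragments of a library. Chief among them were mt-Cytb, the only mitochondrial subunit of complex III, with 29.7% to 37.2%, and mt-Rnr2, the rRNA of the large ribosomal subunit, with 24.7% to 32.2%. Complex III was in this way represented by 50.3% to 54.8% of the fragments on protein genes. The 7 subunits of complex I took 26.7% to 32.9% and the 3 of complex IV, cytochrome c oxidase, 15.5% to 22.5%. Only 0.368% to 0.435% fell on the 2 subunits of ATP synthase.

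Levels per length spanned a wide range. Mean TPM over 8 libraries ran from 12.7 for mt-Nd4l to 13274 for mt-Cytb, a 1041-fold difference. The order was mt-Cytb (13274), mt-Rnr2 (8474), mt-Nd1 (4694), mt-Rnr1 (4554), mt-Co1 (3322), mt-Nd4 (1409), mt-Nd2 (977), mt-Nd5 (559), mt-Nd6 (425), mt-Co3 (186), mt-Atp6 (159), mt-Nd3 (105), mt-Co2 (99.3), mt-Atp8 (59.8) and mt-Nd4l (12.7), in mean TPM. Several neighbours in this order could not be separated. mt-Nd1 was above mt-Rnr1 in 4 of 8 libraries, mt-Rnr1 above mt-Co1 in 7, mt-Co3 above mt-Atp6 in 6 and mt-Nd3 above mt-Co2 in 5. For mt-Nd5 over mt-Nd6 and for mt-Atp6 over mt-Nd3 the ranges overlapped between libraries, yet the first gene was higher within each of the 8. The remaining neighbours had ranges that did not overlap. These levels are descriptions of the deposited counts, with no test.

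**Figure D1:**
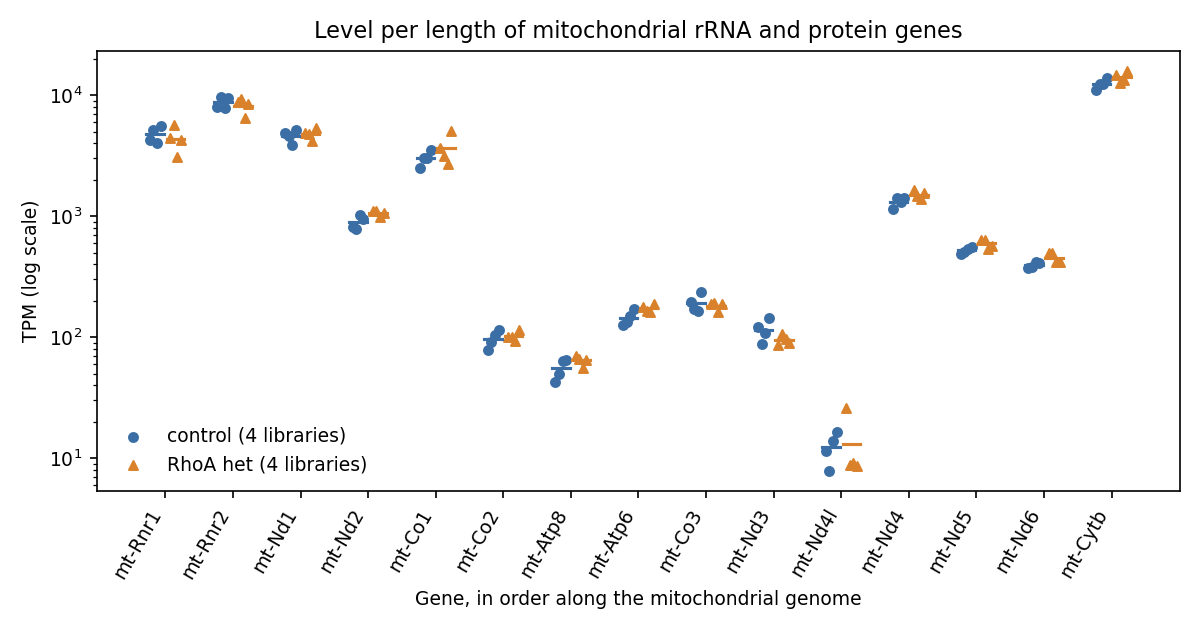
Deposited TPM (log scale) of the 2 rRNA and 13 protein genes in order along mitochondrial DNA, with 1 point per library (control circles, RhoA het triangles) and bars for group means. Values run from 7.83 TPM for mt-Nd4l to 15912 TPM for mt-Cytb, and the stretch from mt-Co2 to mt-Nd4l lies below all other genes in every library.

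The low genes sat together on the chromosome. From mt-Co2 at chrM:7013-7696 to mt-Nd4l at chrM:9877-10173, the mean of every protein gene was at or below 186 TPM, although the genes just before and after them, mt-Co1 (chrM:5328-6872) and mt-Nd4 (chrM:10167-11544), stood at 3322 and 1409 TPM. mt-Co1 and mt-Co2 encode catalytic subunits of the same enzyme. Per length, mt-Co1 was counted 28.8 to 44.7 times as highly as mt-Co2 in each library and 12.8 to 27.4 times as highly as mt-Co3. For mt-Nd4l, which shares its mRNA with mt-Nd4 and overlaps it as shown above, the level per length was only 0.00558 to 0.0158 of that of mt-Nd4. mt-Atp8 stood at 0.337 to 0.428 of mt-Atp6, with which it likewise shares an mRNA. By contrast mt-Nd6, the only protein gene on the minus strand, kept nearly the same ratio to its overlapping neighbour mt-Nd5 throughout, 0.732 to 0.786. The counts do not use strand, so RNA of the opposite strand over a gene is part of its value.

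Most of the low genes have a near-identical annotated copy in the nuclear genome, a stretch of mitochondrial DNA inserted into a chromosome. A block of 7 such copies is annotated on mm39 chromosome 1, minus strand, from 24650616 to 24655278, 4663 bases long and in the order of the mitochondrial genes. Sharing was measured as the percentage of a gene's successive 50-base windows found letter for letter in another transcript of the GENCODE release 21 annotation. It was 100% for mt-Co2, 99.9% for mt-Co3, 99.5% for mt-Atp6, 98.8% for mt-Nd4l and 98.0% for mt-Nd3. These 5 genes, all at 95% or more, had mean levels of 12.7 to 186 TPM. At 62.2% and 51.1%, mt-Nd4 and mt-Co1 lay between the extremes, with 1409 and 3322 TPM. Under 10% lay 8 genes, with levels from 59.8 to 13274 TPM. mt-Atp8 was the exception in this group, with no shared window and a lower level than 4 of the 5 shared genes. Its counterpart on chromosome 1 would fall in a 233-base stretch without annotation between Gm10925 and Gm28661, where mitochondrial DNA has 230 bases between mt-Co2 and mt-Atp6. The sequence of that stretch was not analysed here. Windows of 150 bases gave 97.0% to 99.8% for the same 5 genes and 59.2% and 23.6% for mt-Nd4 and mt-Co1. The counting command set no option to include fragments that align to several places, and its part in the low levels was not tested.

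**Figure D2:**
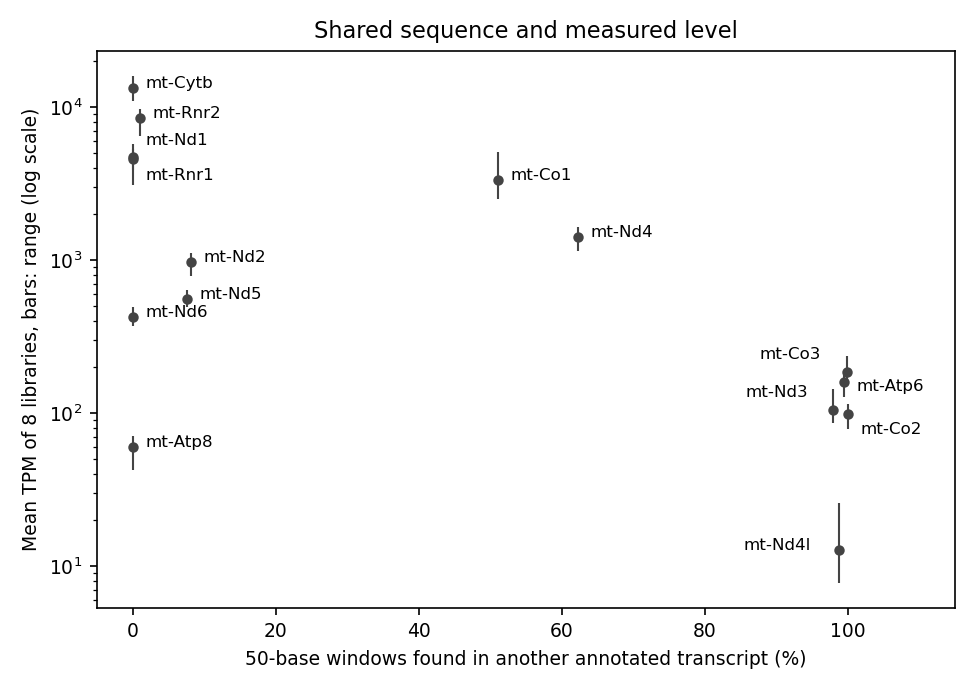
Mean TPM over 8 libraries (log scale, bars from lowest to highest library) of the 15 rRNA and protein genes against the percentage of their 50-base windows found in another annotated transcript. The 5 genes at 95% or more lie at 12.7 to 186 TPM, and mt-Atp8 is the single gene without shared windows at a similarly low level.

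Fragments were also assigned to the copies themselves, in amounts that depended on the gene. Gm28661, the copy of mt-Co2, aligned over 681 bases with 0 mismatches and held 306 to 517 fragments per library where mt-Co2 held 372 to 572, a ratio of 0.731 to 0.945. Gm28437, the copy of mt-Co3, matched over 783 bases with 0 mismatches and held 0.879 to 1.00 times the fragments of its gene. Gm10925, with 678 matching bases and 0 mismatches, held 1.54 to 1.72 times as many fragments as mt-Atp6 in every library. For mt-Nd4l the fragments were few (14 to 47) and its copy Gm10222 held 0.702 to 2.40 times that number. For these 4 whole-gene copies without a mismatch, gene and copy thus held fragments of the same order. The table cannot say at which of the places such a fragment arose, so the levels of these 4 genes are uncertain.

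The chromosome 1 copies that differ at a base, or that are identical to only part of a gene, took far smaller shares. Gm28438 matches mt-Nd3 over 345 bases except for T3C, counted from 1 at the gene's 5′ end with the gene's base first. It held 2 to 18 fragments per library beside 183 to 347 on mt-Nd3, a ratio of 0.00660 to 0.0598. Gm29216 matches mt-Co1 from base 1063 on over 483 bases except for A1066T, and held 0.00900 to 0.0122 times the fragments of mt-Co1. Gm28439 matches the first 876 bases of mt-Nd4 with 0 mismatches, and held 0.0100 to 0.0151 times the fragments of that longer gene. Other copies lie on chromosome 2, among them Gm13340, which aligns to all 1545 bases of mt-Co1 with 37 mismatches and held 157 to 279 fragments. Beside it Gm13341, which aligns to mt-Co2 over 672 bases with 16 mismatches, held 145 to 181 fragments, 0.289 to 0.421 times those of mt-Co2. The start of mt-Nd3 and bases 1063 to 1152 of mt-Co1 are shown with the differing bases in capitals, because a single base separates gene from copy in each of these chromosome 1 pairs. The gene windows are chrM:9459-9518 and chrM:6390-6479, plus strand, and the copies are printed in the direction of the gene.
mt-Nd3 copy window: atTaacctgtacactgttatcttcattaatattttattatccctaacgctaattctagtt
Gm28438: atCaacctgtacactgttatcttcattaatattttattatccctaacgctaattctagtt
mt-Co1 copy window: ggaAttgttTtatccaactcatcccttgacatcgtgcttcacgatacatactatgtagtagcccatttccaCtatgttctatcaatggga
Gm29216: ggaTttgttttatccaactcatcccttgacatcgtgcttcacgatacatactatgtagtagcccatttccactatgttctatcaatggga
Gm13340: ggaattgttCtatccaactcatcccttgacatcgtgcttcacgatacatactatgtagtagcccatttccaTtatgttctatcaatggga

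**Figure D3:**
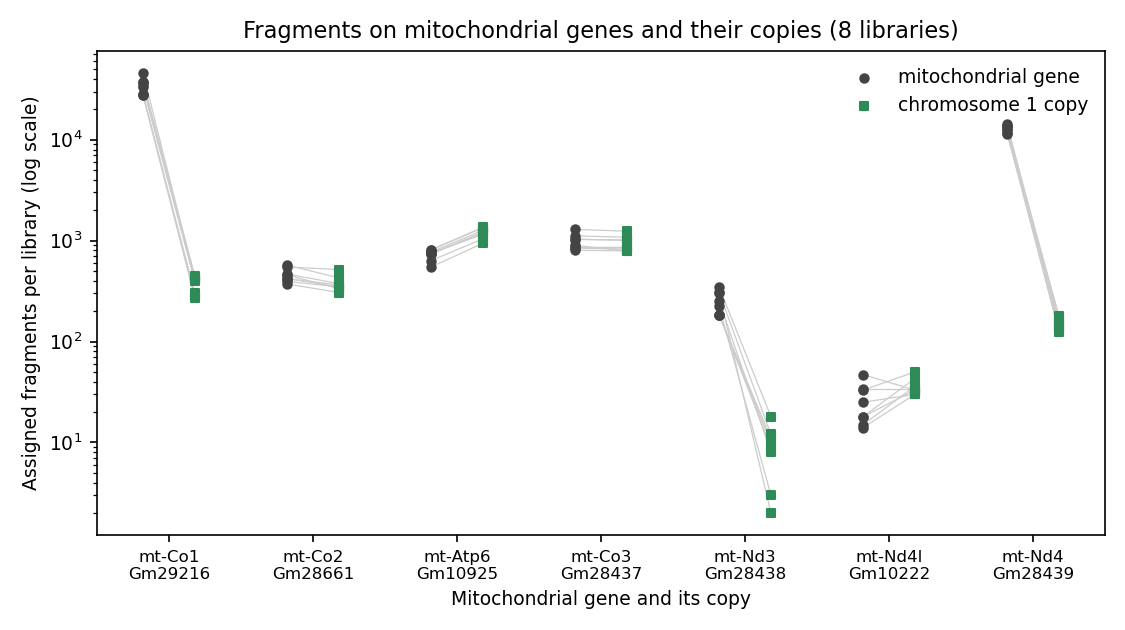
Assigned fragments per library (log scale) on 7 mitochondrial genes (circles) and on their chromosome 1 copies (squares), with a line joining the values of each of the 8 libraries. Gene and copy lie close together for mt-Co2, mt-Atp6, mt-Co3 and mt-Nd4l, and far apart for mt-Co1, mt-Nd3 and mt-Nd4.

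The tRNA genes were barely covered. All 22 together held 196 to 311 fragments per library, 2137 over the 8 libraries, and 18 of them had at most 10 fragments in each library. mt-Td and mt-Tk, the tRNAs for aspartate and lysine, had 0 fragments in all libraries, which allows up to 3 fragments in a library, or 0.117 to 0.157 CPM without TMM scaling (counting error only). The covered tRNAs were mostly those of the minus strand. The 8 minus-strand tRNA genes held 91.0% of all tRNA fragments, and mt-Tp, the proline tRNA, alone held 69.4%. mt-Tp is the last annotated gene of the chromosome, with no annotated neighbour after it. mt-Tf, the phenylalanine tRNA at the other end, had 0 to 3 fragments.

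The 3 tRNA genes with the most fragments are printed beside mt-Td, which had none. In mt-Tq, the glutamine tRNA, capitals mark the bases also annotated to a neighbouring gene on the opposite strand, and the other 3 have no such bases. mt-Tp (chrM:15356-15422), mt-Tq (chrM:3772-3842) and mt-Tc (chrM:5192-5257), the cysteine tRNA, are on the minus strand and mt-Td (chrM:6942-7011) is on the plus strand. Each is written in the direction of its own RNA.
mt-Tp: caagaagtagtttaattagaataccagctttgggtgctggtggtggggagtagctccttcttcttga
mt-Tq: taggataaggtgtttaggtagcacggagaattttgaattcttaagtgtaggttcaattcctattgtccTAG
mt-Tc: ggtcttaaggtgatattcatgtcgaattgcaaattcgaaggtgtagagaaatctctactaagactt
mt-Td: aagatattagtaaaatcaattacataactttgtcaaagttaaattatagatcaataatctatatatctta

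Libraries agreed more closely on the long mitochondrial genes than on a typical gene. The coefficient of variation of CPM over 8 libraries had a median of 14.2% for the 15 rRNA and protein genes and of 23.0% for the 15660 genes tested. Among the 15 it was lowest for mt-Nd4, a complex I subunit, at 8.01% and highest for mt-Nd4l, at 44.6%. mt-Nd4l was also the least counted of them, and 1 library, RhoA het replicate 5 with 47 fragments, stood above the others, which had 14 to 34.

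No mitochondrial gene passed an adjusted p under 0.05 between RhoA het and control. The comparison used edgeR's quasi-likelihood test over all 15660 genes that passed the filter on low counts, with Benjamini-Hochberg adjustment over all of them. Of the 37 genes 18 were tested (13 protein, 2 rRNA and 3 tRNA genes), and the 19 others were tRNAs with at most 13 fragments in a library. Called genes numbered 0 of 18, where the background over all genes tested was 0%, and the lowest adjusted p among the 18 was 1. At an unadjusted p under 0.05 there was 1 gene, mt-Tp, against a background of 2.38% of all genes. DESeq2's Wald test called 0 and had 1 gene at an unadjusted p under 0.05, again mt-Tp, against a background of 1.57%. In CPM the groups overlapped for all 18 genes, where 1.81% of all genes tested had groups that did not overlap. The median log2 fold change was 0.04 over the 18 genes and -0.00071 over all genes tested. Among the 18, the interval was narrowest for mt-Nd4, at 0.12 (SE 0.12, 95% interval -0.15 to 0.39). mt-Cytb, the most counted, gave 0.10 (SE 0.15, -0.24 to 0.45). Changes beyond these bounds lay outside the 95% interval of the gene. Other abundant genes had wider intervals, -0.70 to 0.30 for mt-Rnr1 and -0.27 to 0.66 for mt-Co1.

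**Figure D4:**
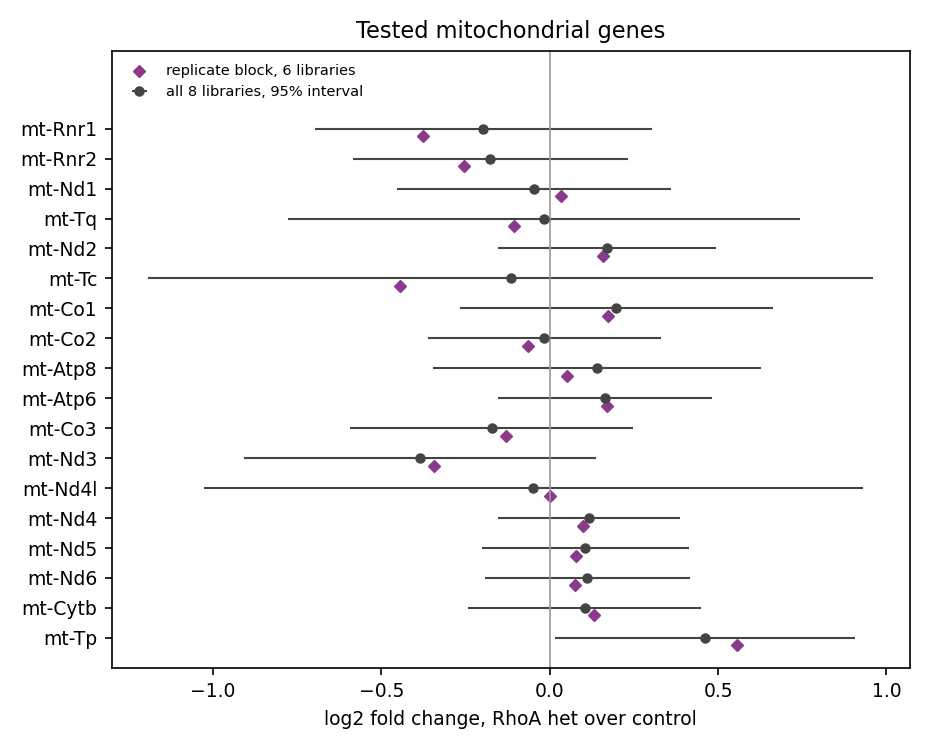
Log2 fold change of RhoA het over control for the 18 tested mitochondrial genes in order along the chromosome, from edgeR over 8 libraries with 95% intervals (circles) and over the 3 pairs 5, 7 and 8 with the replicate number as a block (diamonds). The interval of mt-Tp, from 0.02 to 0.91, is the single one that does not reach 0.

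The subunits of complex I, which takes electrons from NADH, had log2 fold changes from -0.38 (mt-Nd3) to 0.17 (mt-Nd2). mt-Nd4 had 609, 541, 537 and 633 CPM in control and 649, 656, 571 and 639 CPM in RhoA het. It was higher in RhoA het in 3 of 3 same-numbered pairs, although the groups overlapped. mt-Nd2 gave a log2 fold change of 0.17 (SE 0.14), mt-Nd5 0.11 (SE 0.14), mt-Nd4l -0.05 (SE 0.44), mt-Nd6 0.11 (SE 0.14) and mt-Nd1 -0.05 (SE 0.18), none past the test in edgeR. The fold change of mt-Nd1 turned above 0 with total counts in place of TMM (0.02) and on log2(TPM + 1) (0.06). In these 2 settings the median of all genes was higher still, at 0.04 and 0.07. Over the 6 libraries numbered 5, 7 and 8 mt-Nd1 was at 0.02, where the median of all genes was -0.02. mt-Nd3 had the lowest unadjusted p among the genes below 0. Its level was 16.3, 8.55, 11.4 and 16.3 CPM in control and 8.69, 12.1, 10.04 and 9.41 CPM in RhoA het. Control replicates 2 and 8 were the high libraries, and control replicate 5 was below all RhoA het libraries (log2 fold change -0.38, SE 0.23, edgeR p 0.132, adjusted p 1). Without control replicate 5 the unadjusted edgeR p of mt-Nd3 was 0.0229.

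The other protein genes gave the same picture. mt-Cytb stood at 4852, 3964, 4263 and 5169 CPM in control and at 4813, 4732, 4588 and 5481 CPM in RhoA het. RhoA het was higher in 3 of 3 pairs and the groups overlapped. Among the complex IV subunits, mt-Co1 gave a log2 fold change of 0.20 (SE 0.21), mt-Co2 -0.02 (SE 0.15) and mt-Co3 -0.17 (SE 0.19). RhoA het replicate 8 set the value of mt-Co1, at 2371 CPM against 1244 to 1770 CPM in the other 7 libraries. Without it the fold change was -0.0045. Of the ATP synthase subunits, mt-Atp6, which forms part of the proton channel, gave 0.17 (SE 0.14) and was higher in 3 of 3 pairs, and mt-Atp8 gave 0.14 (SE 0.22). In all, 8 of 13 protein genes lay above 0 and 5 below, none past the test.

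Both rRNAs were lower in RhoA het within each pair of same-numbered libraries, but not past the test. mt-Rnr1, the rRNA of the small ribosomal subunit, had 1584, 1374, 1143 and 1736 CPM in control and 1213, 1775, 889 and 1215 CPM in RhoA het. RhoA het replicate 6 was the highest of all 8 libraries and RhoA het replicate 7 the lowest, so the groups overlapped (log2 fold change -0.20, SE 0.22, edgeR p 0.399, adjusted p 1). mt-Rnr2 had 4894, 4304, 3688 and 4932 CPM in control and 3967, 4748, 3049 and 4005 CPM in RhoA het, a log2 fold change of -0.18 (SE 0.18). Over the 6 libraries numbered 5, 7 and 8, without RhoA het replicate 6 and control replicate 2, the fold change of mt-Rnr1 was -0.38 (edgeR p 0.109). With the replicate number as a block in that fit it was -0.38 (SE 0.13, edgeR p 0.0142, adjusted p 0.788). In the block fit 2 of the 18 genes, mt-Rnr1 and mt-Tp, had an unadjusted p under 0.05, against a background of 5.26% of genes, and 0 passed the adjusted threshold, against a background of 0.0127%. Both rRNA values moved with single libraries. Without RhoA het replicate 7 the fold changes of mt-Rnr1 and mt-Rnr2 were -0.06 and -0.08, and without RhoA het replicate 6 they were -0.40 and -0.28. mt-Rnr1 was also at -0.11 without control replicate 8 and at -0.30 without control replicate 7. The summed CPM of 15 myofibre markers was lower in RhoA het in the same 3 pairs, at 573, 248 and 93.6 CPM in control replicates 5, 7 and 8 and 241, 78.5 and 55.2 CPM in the RhoA het libraries of these numbers. In the block fit 2 of the 13 tested myofibre genes passed the adjusted threshold and 11 had an unadjusted p under 0.05 (edgeR), with a median log2 fold change of -1.22. Their part in the rRNA values was not tested.

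As a share of mitochondrial fragments the rRNAs took 40.2%, 42.5%, 37.4% and 39.9% in control and 35.8%, 40.9%, 31.9% and 32.4% in RhoA het. RhoA het replicates 5, 7 and 8 were below all control libraries, and RhoA het replicate 6 was above 3 of the 4. The 95% Wilson intervals reached at most 0.181 percentage points to either side. The ratio of rRNA to protein-gene fragments was 0.669 ± 0.0586 in control and 0.551 ± 0.103 in RhoA het (SD, n = 4 each), and was lower in RhoA het in 3 of 3 pairs. The groups differed in this ratio by -0.118 over all 8 libraries and by -0.164 over the 6 numbered 5, 7 and 8. Within the rRNAs, mt-Rnr2 was 1.62 to 2.07 times as high per length as mt-Rnr1. As a sum over the members, the share carries no p.

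**Figure D5:**
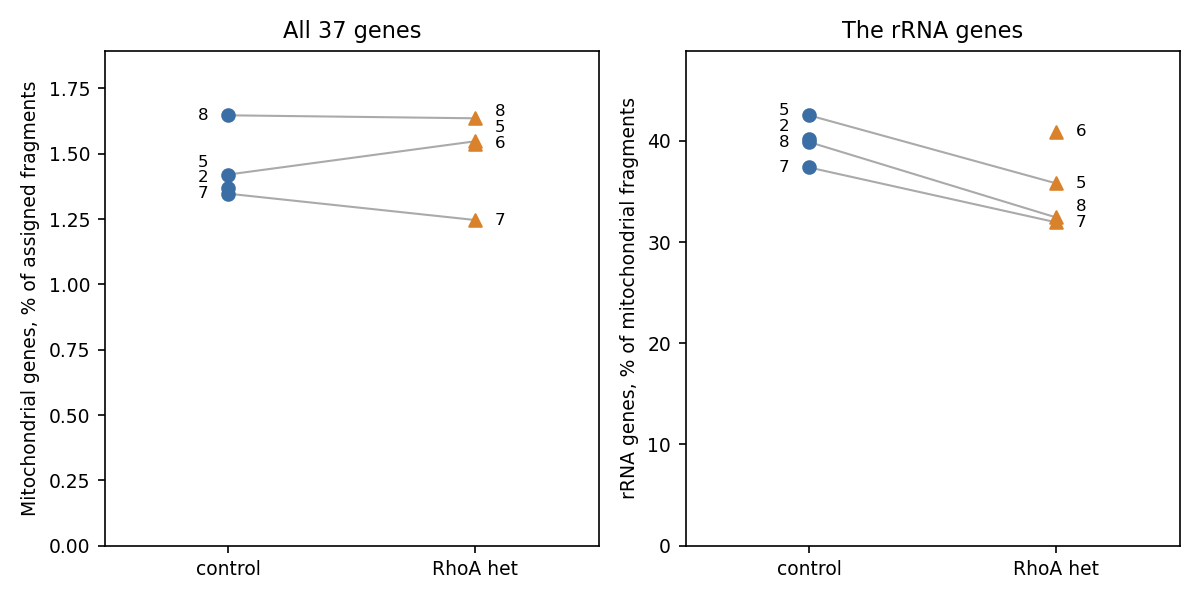
Percentage of assigned fragments on the 37 mitochondrial genes (left) and percentage of mitochondrial fragments on the 2 rRNA genes (right), 1 point per library with its replicate number and lines joining libraries of the same number. The groups overlap in both panels, and the rRNA share is lower in RhoA het along all 3 lines, while RhoA het replicate 6 lies at 40.9%.

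The proline tRNA gene mt-Tp was the member with the lowest unadjusted p. It had 171, 138, 158 and 170 fragments in control and 244, 209, 184 and 209 in RhoA het. In CPM these were 9.03, 6.41, 5.92 and 7.99 against 11.5, 9.94, 8.25 and 10.7. Control replicate 2 lay above RhoA het replicate 7 in CPM, whereas in deposited TPM (295 to 364 in control and 409.8 to 595 in RhoA het) the groups did not overlap. The share of all genes without overlap was not counted in TPM. On log2(TPM + 1) the median log2 fold change of all genes was 0.07. RhoA het was higher in 3 of 3 pairs. The fitted log2 difference was 0.46 (SE 0.20), with a 95% interval from 0.02 to 0.91, an edgeR p of 0.0433 and an adjusted p of 1. Over the 6 libraries numbered 5, 7 and 8 it was 0.56 (edgeR p 0.0448). The unadjusted p was under 0.05 in 13 of the 20 settings tried and ranged from 0.00358 to 0.106. It rose above 0.05 without control replicate 5, 7 or 8, without RhoA het replicate 5, 6 or 8, and without a filter on low counts. Over all settings and all 18 genes the lowest adjusted p was 0.788. The other tested tRNAs, mt-Tq and mt-Tc, gave -0.02 (SE 0.34) and -0.12 (SE 0.48).

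With mt-Tp, the tRNA share of mitochondrial fragments also stood apart between the groups. It was 0.0767%, 0.0682%, 0.0791% and 0.0778% in control and 0.0973%, 0.0889%, 0.0902% and 0.0993% in RhoA het. All RhoA het libraries were above all control libraries, and 69.4% of these fragments were those of mt-Tp. The 95% Wilson interval of each share reached up to 0.0112 percentage points to either side, so the intervals of the nearest libraries of the groups overlap. As a share of all assigned fragments, the tRNAs took 0.00097% to 0.00128% in control and 0.00112% to 0.00162% in RhoA het. On that scale the groups overlapped. Neither share carries a p.

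The nuclear genes that copy, transcribe and process mitochondrial DNA showed no called change. Of 62 genes listed for mitochondrial DNA maintenance, transcription, RNA processing and biogenesis 60 were tested, 0 were called in edgeR, and 1 was at an unadjusted p under 0.05, where the background was 2.38% of all genes. DESeq2 also called 0, with 1 at an unadjusted p under 0.05. There were 25 above and 35 below 0, with a median log2 fold change of -0.03 against -0.00071 for all genes. The gene under 0.05 was Mrm3, which methylates the large mitochondrial rRNA, with 24.2 to 36.4 CPM in control and 20.2 to 25.1 CPM in RhoA het (log2 fold change -0.37, SE 0.16, edgeR p 0.0410, adjusted p 1). 1110008L16Rik, an older name of Prorp, which cuts the 5′ end of mitochondrial tRNAs, had 3.99 to 5.62 CPM in control and 2.47 to 3.94 CPM in RhoA het. Its groups did not overlap, as for 1 of the 60 genes, near the 1.81% of all genes tested (log2 fold change -0.43, SE 0.23, edgeR p 0.1002). Above 0 the lowest p belonged to Lig3, a DNA ligase, with 0.23 (SE 0.14), and to Tefm, a transcription elongation factor, with 0.34 (SE 0.22). In the block fit over the 6 libraries numbered 5, 7 and 8, 0 of 59 tested were called. There 2 had an unadjusted p under 0.05, against a background of 5.26%: Mrm3 (edgeR p 0.0239) and 1110008L16Rik (edgeR p 0.0489). The median of these genes was -0.05 and that of all genes -0.02.

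Another 4 of the listed genes are named for their roles, after their values were seen. Tfam, which packages mitochondrial DNA and starts its transcription, had 53.2, 54.2, 56.4 and 50.8 CPM in control and 47.6, 45.2, 52.7 and 43.4 CPM in RhoA het. It was lower in 3 of 3 pairs and not past the test (log2 fold change -0.18, SE 0.11, edgeR p 0.115). Polrmt, the mitochondrial RNA polymerase, gave -0.06 (SE 0.21). Lrpprc, which keeps mitochondrial mRNAs stable, gave 0.09 (SE 0.18), and Ppargc1a, a regulator of mitochondrial biogenesis, 0.39 (SE 0.56).

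The nuclear subunits of the complexes that mitochondrial DNA helps to build lay mostly below 0, without a call. All 75 listed were tested, 0 were called in edgeR and 0 had an unadjusted p under 0.05, against a background of 2.38%. DESeq2 gave 0 and 0 as well. Below 0 were 66 of 75 (88.0%), where 50.1% of all genes tested were below 0. By complex these were 28 of 36 for complex I, 9 of 9 for complex III, 14 of 15 for complex IV and 15 of 15 for ATP synthase. The median log2 fold change was -0.12 under TMM scaling and -0.07 with total counts, where the median of all genes was 0.04. With single libraries left out, the median of the 75 stayed below 0. It ran from -0.19 without RhoA het replicate 5 to -0.06 without control replicate 2. Control replicate 2 had the highest summed level of the 75 genes, at 9489 CPM. The other control libraries stood at 7663 to 8613 CPM and the RhoA het libraries at 7316 to 8077 CPM, so the groups overlapped. In the block fit over the 6 libraries numbered 5, 7 and 8, 0 of the 75 were called. There 2 had an unadjusted p under 0.05 (edgeR), against a background of 5.26%. The median of the 75 was then -0.08 and that of all genes -0.02.

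Among single nuclear subunits, the lowest p below 0 belonged to Cox7a2, a complex IV subunit, with 102.2 to 156.8 CPM in control and 92.3 to 117.7 CPM in RhoA het (log2 fold change -0.32, SE 0.15, edgeR p 0.0655). Ndufv1, which holds the NADH site of complex I, had 122.5 to 137.1 CPM in control and 113.1 to 121.6 CPM in RhoA het (-0.17, SE 0.10). It was the 1 gene of the 75 whose groups did not overlap, against 1.81% of all genes tested. Above 0 were Cox4i2, an isoform of a complex IV subunit, with 0.70 (SE 0.61), and Ndufa8, of complex I, with 0.13 (SE 0.14).

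Markers of other cell types differed between libraries by more than the mitochondrial share did, and their part in it was not tested. The highest fibro-adipogenic sums, 10834 CPM in control replicate 5 and 9117 CPM in RhoA het replicate 5, went with mitochondrial shares of 1.42% and 1.55%. The lowest, 2436 CPM in control replicate 7, went with 1.35%. RhoA het replicate 8, the library highest in mt-Co1, had 2187 CPM over 5 mural markers against 585 to 1426 CPM elsewhere. Summed myofibre markers, given by pair with the rRNAs above, ran from 90.3 to 573 CPM in control and from 55.2 to 531 CPM in RhoA het, and 2 of the 15 genes were at 0 in some library. The 8 immune markers, 3 of them at 0 in some library, summed to 92.3 to 357 CPM with the libraries numbered 8 highest in both groups. The 5 erythroid markers summed to 1.86 to 319 CPM, highest in RhoA het replicate 6, and the 4 Schwann cell markers to 201 to 462 CPM. The 10 muscle stem cell markers summed to 8858 to 15662 CPM in control and to 8099 to 15811 CPM in RhoA het. RhoA het replicate 6, with 692 CPM of endothelial markers, had the second largest rRNA share, 40.9%, and the largest mt-Rnr1 level.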

How the data were processed

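The authors deposited a table of counts per gene and a table of TPM per gene for 8 RNA-seq libraries of sorted muscle stem cells. Per the labels' protocols, cDNA was made from total RNA with a low-input kit that relies on template switching. FastQC, cutadapt, STAR, featureCounts and DESeq2 are named in the submitters' processing notes, without roles. Per the file headers, the deposited counts are read pairs assigned by featureCounts 1.6.4 to the exons of each gene in GENCODE mouse release 34 (mm39), with no option for strand, for multi-mapping fragments or for fragments overlapping several genes. As far as the command shows, multi-mapping fragments and fragments overlapping several genes were therefore not counted. The command named 10 alignment files, and those without a column in the table were not analysed here. TPM recomputed here from the counts and the gene lengths of the table matched the deposited TPM to a relative difference of at most 1.5e-14. Of the columns with per-sample values, 0 were left unused.

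Members were taken by the chromosome column. Symbols came from GENCODE release 21 and matched 51884 of 57180 identifiers. Sequences came from that release's transcripts (GRCm38), in which all 37 members were found. The members and gene lists were chosen with earlier results of these data known, and the lists are described without set tests. The lists cover 4 groups of mitochondrial machinery genes, 4 complexes of nuclear subunits, and markers of muscle stem cells, myofibres and endothelial, fibro-adipogenic, immune, erythroid, mural and Schwann cells.

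Counts were tested with edgeR 4.0.16 (R 4.3.3): filterByExpr, TMM scaling, and the quasi-likelihood F test of 4 RhoA het against 4 control libraries without covariates. P-values were adjusted by Benjamini-Hochberg over all 15660 genes tested, and called at 0.05. Standard errors were derived from the F statistic. CPM uses TMM-scaled library sizes, and log2 CPM a prior count of 2. The biological coefficient of variation was 33.3%. The fit was tested on simulated data with 200 changed genes. Shares and TPM are described without a test.

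The titles give the replicate numbers 5, 7 and 8 to a library of either group. Deviations from the group means of same-numbered libraries correlated at 0.544, 0.231 and 0.488. Correlations of differently numbered libraries were not set beside these, so the values cannot show that the numbers mark pairs. For the block fit and the counts of pairs, the numbers were taken to pair these libraries. The labels do not say what they stand for.

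Genes named were the 15 rRNA and protein genes, the 3 tRNA genes with most fragments, the member with the lowest p in each direction, and the 2 genes per direction with the lowest p over the machinery lists and over the nuclear subunit lists. Other names were added after their values were seen. Alternatives were DESeq2 size factors, upper-quartile factors and total counts in edgeR, TMM without the members, unfiltered counts, a minimum mean count of 10, DESeq2 1.42.0, limma 3.58.1 on log2(TPM + 1) and on log2(TPM + 0.1), the replicate block, the same 6 libraries without it, and leaving out each library. Shares over 6 libraries, the rRNA to protein ratio in other subsets and the lists under total counts were added after seeing the data.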

Additional observations from a re-analysis of the deposited data

Results flagged for a closer look

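Within each group of 4 libraries, the gap between the highest or lowest library and its nearest neighbour was divided by the group's range and set against Dixon's 95% critical value for 4 samples. Of 44 such tests, 3 exceeded it, where chance gives about 2.2. The first was mt-Nd2 in control, with a ratio of 0.884: control replicate 5 stood at 7.84 log2 CPM and the other control libraries at 8.30 to 8.36. The next was mt-Nd4l in RhoA het, with 0.905: replicate 5 stood at 1.20 log2 CPM and the others at -0.21 to -0.08. The last was the share of assigned fragments on the protein genes in control, with 0.843: replicate 8 held 0.989% and the others 0.816% to 0.843%. In the RhoA het libraries that share was 0.847% to 1.10%.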

How the results depend on the processing

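In edgeR, DESeq2 and limma alike, 0 of the tested mitochondrial genes passed an adjusted p under 0.05 under any of the alternatives. Of the machinery and nuclear subunit lists 0 genes passed it under the edgeR and DESeq2 settings run for them. With a replicate block over numbers 5, 7 and 8, the count of called members stayed at 0 and the lowest adjusted p was 0.788 in edgeR; it changed no call among the members or the machinery and nuclear subunit lists, while 2 of 13 tested myofibre markers were called with it, against 0 over all 8 libraries. At an unadjusted p under 0.05 the count of members, 1 over all libraries, was 2 with the block, 0 without a filter, and 0 without control replicate 7 or 8 or RhoA het replicate 5, 6 or 8. Of 342 fold changes of the 18 genes under alternatives, 310 kept their sign, and 12 genes kept it throughout.

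The 6 genes that changed sign had log2 fold changes from -0.12 (mt-Tc) to 0.20 (mt-Co1) over all 8 libraries. With total counts in place of TMM, which moved the median of all genes to 0.04, mt-Nd1 was at 0.017, mt-Co2 at 0.031, mt-Nd4l at 0.029, mt-Tq at 0.029 and the median of the machinery lists at 0.0058. On log2(TPM + 1), mt-Nd1 was at 0.056, mt-Co2 at 0.075 and mt-Tq at 0.086, and on log2(TPM + 0.1) at 0.056, 0.076 and 0.088. The median of all genes moved as well, to 0.068 and 0.086 in these 2 settings. The replicate block gave 0.033 for mt-Nd1 and 0.00044 for mt-Nd4l, and the same 6 libraries without the block 0.022 and 0.097. Leaving out 1 library gave -0.15 to 0.076 for mt-Nd1, -0.0045 to 0.31 for mt-Co1, -0.12 to 0.085 for mt-Co2, -0.56 to 0.12 for mt-Nd4l, -0.21 to 0.24 for mt-Tq, -0.39 to 0.14 for mt-Tc and -0.085 to 0.056 for the machinery median. The cause was not tested.

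The difference in mitochondrial share, 0.0461 percentage points of fragments, was 0.231 percentage points of TPM, and -0.0017 to 0.128 with 1 library left out. Without the 2 rRNA genes the difference was 0.0968 percentage points of fragments. That share was higher in RhoA het in 3 of 3 pairs, with overlapping groups. Low fragment counts limit the results for the tRNAs, of which 19 were not tested, and for mt-Nd4l. The cause of these low counts was not tested. Identical nuclear copies limit mt-Co2, mt-Co3, mt-Atp6 and mt-Nd4l. Shared sequence also limits mt-Nd3, with 98.0% of its 50-base windows found elsewhere, and in part mt-Nd4 (62.2%) and mt-Co1 (51.1%).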
